A study of Homo sapiens with 2 samples.

Results

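The human genes for the histones that package newly copied DNA lie mostly in a cluster on chromosome 6, and 59 of the 239322 rows of the deposited exon tables fall inside it by position. A row is 1 listed exon with its position and strand, and the files attach no gene name to it. The 59 rows were taken by position and length only. They lie in 4 windows that together span 324000 bp of chromosome 6, start and end inside a window, are at least 300 bp long and lie on either strand (27 on the plus strand and 32 on the minus strand). Their median length was 466 bp, with a range from 353 to 1460 bp, and 2 of them overlapped another listed row. RNA was sequenced from Huh-7, a human hepatocellular carcinoma cell line grown to passages 15-20, after 24 h in 0.1% DMSO (control) or 24 h in 0.1 mM BS008, an amiloride derivative. Each condition had 1 library, so no difference below has a replicate check and no test was made. The counts on all rows came to 55476654 in the control library and to 53578432 in the BS008 library.

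Replication-dependent histone genes encode the linker histone H1 and the core histones H2A, H2B, H3 and H4. They are short, mostly without introns, and are transcribed mainly in S phase, when newly copied DNA has to be wrapped into nucleosomes. Their transcripts usually end just after a conserved stem-loop, which the stem-loop binding protein SLBP holds during 3' end processing, translation and decay, and they carry no poly(A) tail. Some of these genes also give longer transcripts that end at a downstream poly(A) signal. The libraries were made with an mRNA-seq kit, which collects RNA through its poly(A) tail. Histone transcripts that end at the stem-loop may thus be missed, and the counts can hold mainly the polyadenylated forms and what was carried over. A rise in counts can come from more transcript or from a larger polyadenylated share, and these cannot be told apart in these files.

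The stem-loop is shown first, because it decides what such a library can see. The files follow hg19, and no hg19 sequence or annotation was used here, so no row was tied to a gene. The sequences are those of the cluster's genes as annotated on GRCh38, taken by gene name and not by the windows above. RefSeq on GRCh38.p14 lists 66 genes of the cluster, of which 55 are protein-coding (6 for H1, 12 for H2A, 15 for H2B, 10 for H3 and 12 for H4). The GENCODE 29 transcripts of the 55 coding genes were searched for 16-base hairpins with a 6-base perfect stem and a 4-base loop. The 3 hairpins found in the most genes follow, written 5' to 3' as DNA, with both arms of the stem in capitals.
Hairpin 1: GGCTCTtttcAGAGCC
Hairpin 2: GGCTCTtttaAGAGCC
Hairpin 3: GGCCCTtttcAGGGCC
Hairpin 1 was in 9 of the 55 genes (16.4%), and hairpins 2 and 3 were in 4 genes each. Of 19598 other protein-coding genes, 1 (0.0051%) held hairpin 1. All genes with a symbol that starts with HIST were left out of these, so histone genes so named outside the cluster were not compared. Any of 4 such variants, alike in the first 2 stem bases and the first 3 loop bases, was found in 18 genes (32.7%). Of the 21 transcripts with such a hairpin, 4 ended within 20 bases of it and 12 went on for over 100 bases. For 14 of the 55 genes, a transcript had AATAAA or ATTAAA, the usual poly(A) signals, in its last 60 bases. The annotation thus holds forms that such a kit could collect as well as forms that it may miss. A gene without a match has no such letters in its annotated transcripts, which says nothing else about it.

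The promoters of the cluster carry short shared motifs, and they are shown because many of the rows lie in pairs that face away from a common stretch. Of 54 RefSeq promoter windows of the cluster's coding genes (300 bases on GRCh38.p14, from 250 before to 50 after the start), 66.7% held the TATA box letters TATAAA, against 11.5% of 35116 promoter windows of all genes. The letters CCAAT were found in 87.0% against 34.6%, and the octamer ATTTGCAT in 42.6% against 1.77%. Both strands were searched, and matches of a motif on the 2 strands can overlap. The classes differed, since the octamer was in 81.8% of the 11 H2A windows and 76.5% of the 17 H2B windows but in 0 of the 6 H1 and 0 of the 10 H4 windows, and CCAAT was in 30.0% of the H4 windows. One promoter is given as an example, that of H2BC11 (RefSeq, GRCh38.p14, chr6:27132746-27133045, minus strand), with matches to the 3 motifs on either strand in capitals.
H2BC11 promoter: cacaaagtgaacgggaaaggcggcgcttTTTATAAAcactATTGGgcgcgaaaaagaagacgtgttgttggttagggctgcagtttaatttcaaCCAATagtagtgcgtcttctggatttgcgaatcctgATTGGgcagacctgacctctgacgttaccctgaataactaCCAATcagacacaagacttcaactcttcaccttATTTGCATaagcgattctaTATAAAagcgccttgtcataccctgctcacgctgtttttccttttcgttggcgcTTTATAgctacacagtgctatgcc
The promoter window of H2AC11, on the plus strand, shares 253 of these bases, so this H2B gene and this H2A gene are read away from each other out of the same stretch. A match describes letters in a window and is not evidence of binding.

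The rows were checked against the label as far as the files allow. The length of 14 of the 59 rows (23.7%) equalled that of a histone transcript or gene of the cluster, compared with 11.6% of 28197 other rows of the same length range, which is a weak check. Some histone genes share stretches of sequence. Stretches of 50 bases were taken from the shortest GENCODE 29 transcript of each coding gene, and the median gene shared 0.0% of them. Of the 55 genes, 26 shared at least 1 stretch with another annotated transcript, and 13 shared over 20% of theirs. That transcript was of another coding gene of the cluster, of a gene elsewhere, or a non-coding one, which can be of the same gene. How reads that match several copies were counted is not given in the sources used here, so the split of reads between the rows is uncertain. The kit does not mark the strand, and reads of overlapping transcripts on opposite strands cannot be told apart.

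Few reads fell on the cluster in control cells, and several times as many after BS008. Its 59 rows held 2906 reads (exact 95% Poisson interval 2801.3 to 3013.6), or 52.38 CPM (counts scaled to the library total) and 0.005238% of all counts. After BS008 they held 22130 reads (21839 to 22424), or 413.0 CPM and 0.0413% of all counts. Scaled to the library totals, the sum was 7.88-fold higher in BS008-treated cells (exact 95% interval 7.59 to 8.20). All such intervals cover the counting of reads only, not differences between cultures, and PCR copies of a molecule are not independent reads. A row at 0 counts could still hold up to 3 reads, or 0.0541 CPM in the control library and 0.0560 CPM in the BS008 library.

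The number of rows with reads changed less than their level. At least 1 read was counted on 49 of 59 rows in control cells and on 54 after BS008. At least 10 reads were found on 32 and 46 rows, at least 100 on 5 and 20, and at least 1000 on 0 and 6. The median RPKM (reads scaled to the length of the row and to the library total) of the 59 rows was 0.406 in control cells and 2.32 after BS008, while that of all listed rows was 1.25 and 1.38. In control cells 16 of the 59 rows were above the median of all rows, and in BS008-treated cells 35 were. The highest row stood at the 89.0th percentile of all rows in control cells and at the 98.9th after BS008.

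**Figure D1:**
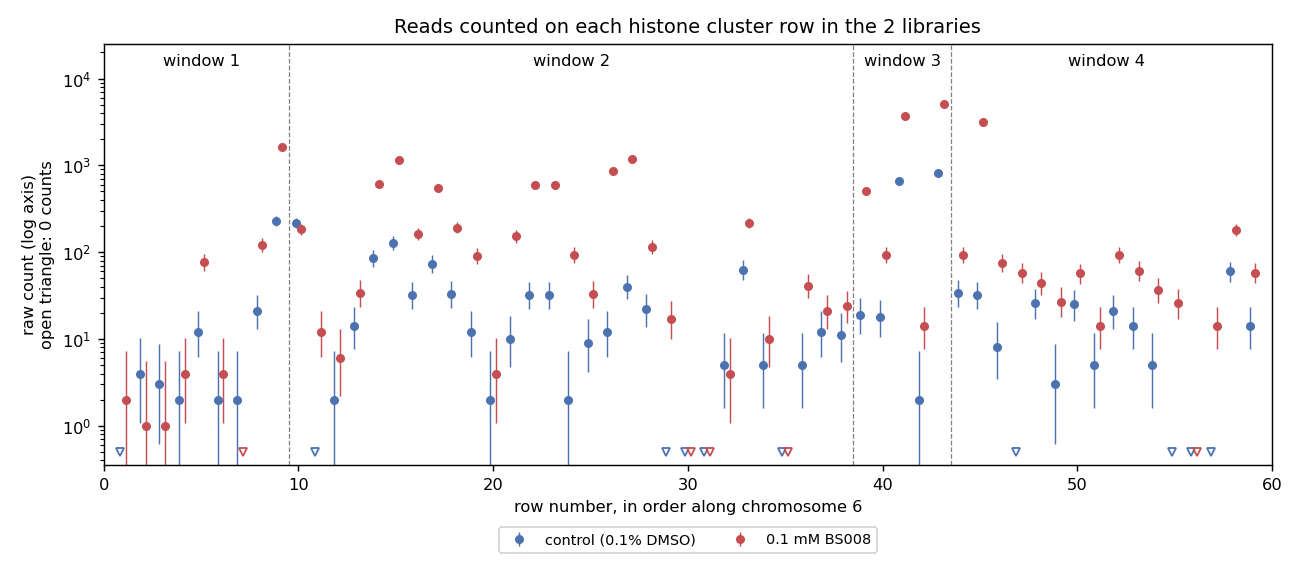
Raw counts (log axis) of the 59 rows in order along chromosome 6, with control in blue and BS008 in red, exact 95% Poisson intervals as bars, and open triangles for rows at 0 counts. Dashed lines separate the 4 windows. At least 100 reads were counted on 5 rows in control cells and on 20 after BS008, and row 10 (26104176) is the only row with over 100 control reads at which the red point lies below the blue.

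Nearly all rows moved the same way. Of the 59 rows, 50 had a higher CPM in BS008-treated cells, 5 a lower one and 4 had no reads in either library. Among all rows of the files with a read in either library, 49.4% had a higher CPM after BS008. Log2 ratios compare CPM after BS008 with CPM in control, each with a pseudocount of 0.5 added, which understates the change of rows with few reads, and a row was called at 2-fold or more with at least 10 counts in either library. Of 131330 such rows of the files, 3.73% were called higher and 3.79% lower. Of the 59 cluster rows, 31 were called higher and 0 lower. The count minimum was met by 46 rows, but 14 of these met it only through the BS008 library and therefore had to be higher there. Among the 32 rows with at least 10 control reads, 31 were higher and 26 were called higher. Of all 124269 rows with that many control reads, 54349 were higher and 3.44% were called higher. The one row of these 32 that was not higher is 26104176.

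For most rows with at least 10 control reads the difference was larger than counting error. The exact interval of the fold was wholly above 1 for 30 of these 32 rows and wholly below 1 for 0, whereas 22.8% of all rows with that many control reads had an interval above 1. It lay wholly above 2-fold for 25 of the 32, and this share was not taken over all rows with that many control reads. Past the minimum in either library, it did so for 35 of 46 rows and for 4.16% of all rows. With the rows that met the minimum only through BS008, which could not lie below 1, an interval above 1 was found for 42 of 46 rows, and for 24.8% of all rows past the minimum. The median log2 ratio was 1.01 over all 59 rows, 1.44 over the 46 rows past the count minimum and 1.63 over the 32 rows with at least 10 control reads, while that of all rows past the minimum was -0.04. The log2 ratios of the 46 rows ranged from -0.18 to 5.79.

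**Figure D2:**
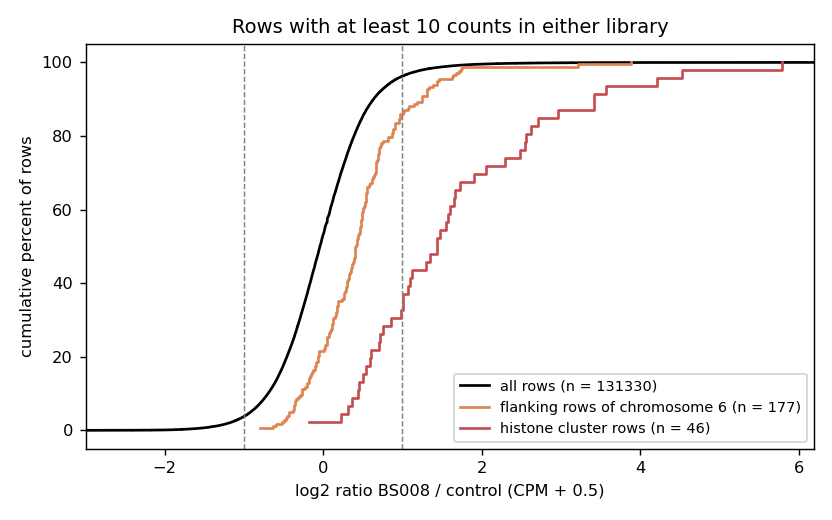
Cumulative percent of rows (vertical axis) against the log2 ratio of BS008 to control on CPM + 0.5 (horizontal axis), for 131330 rows of the files in black, 177 flanking rows of chromosome 6 in orange and 46 histone cluster rows in red, each with at least 10 counts in either library. Dashed lines mark 2-fold. The cluster rows lie to the right of the others, with a median of 1.44, and none lies left of the lower line.

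**Figure D3:**
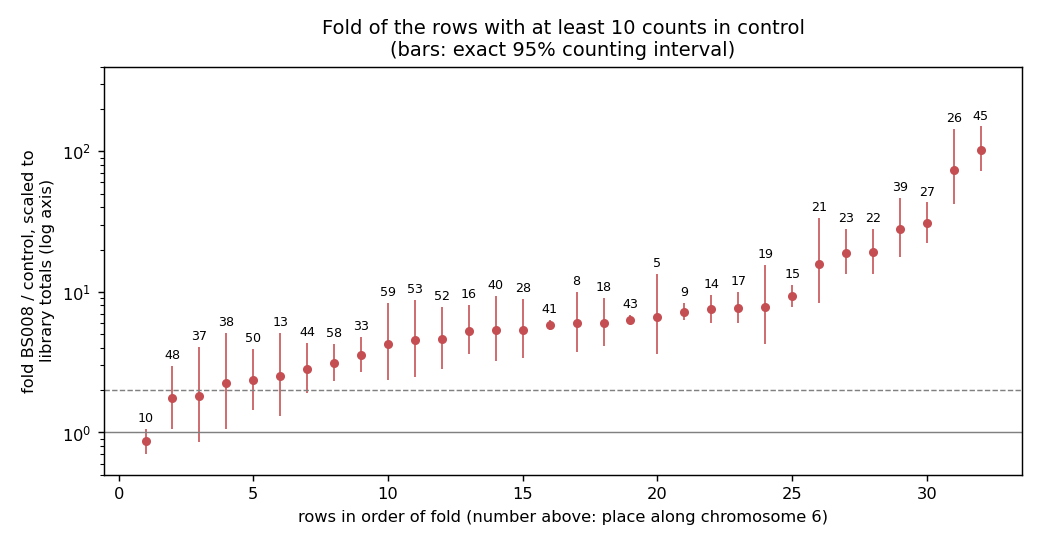
Fold of BS008 to control, scaled to the library totals without a pseudocount (log axis), for the 32 rows with at least 10 control reads in rising order. Bars are exact 95% counting intervals, the number over each point is the row's place along the chromosome, and the lines mark 1-fold and 2-fold. Only row 10 (26104176) lies below 1, and row 45 (27777842) is highest at 103-fold.

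The row with the largest change was chr6:27777842-27778313 on the plus strand. Reads on it went from 32 (21.9 to 45.2) to 3168 (3059 to 3280), a log2 ratio of 5.79 and a fold of 103 (72.5 to 150). Its level rose from 1.22 to 125 RPKM. By RPKM it was 17th among the 59 rows in control cells and the third after BS008, ahead of all but the rows 27114188 and 27106073.

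A head-to-head pair came next. The minus-strand row chr6:26216428-26216872 went from 12 to 857 reads, which is 74.0-fold (42.1 to 144) and a log2 ratio of 4.53. Its plus-strand partner, chr6:26217148-26217711, starts 275 bp further on and went from 40 to 1187 reads, which is 30.7-fold (22.4 to 43.2) and a log2 ratio of 4.21. Both were below 1.5 RPKM in control cells and at 35.9 and 39.3 RPKM after BS008. The row chr6:27100096-27100575 (minus strand) rose from 19 to 511 reads, 27.9-fold (17.7 to 46.6).

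Some high folds rest on very few control reads. Rows 26199013 and 26199087, both on the minus strand, overlap and share reads, so their values (32 to 590 and 32 to 588 reads, log2 ratios of 3.42 and 3.41) are close to 1 measurement counted under 2 row boundaries. Row 26199787 on the plus strand went from 2 to 93 reads, with a fold of 48.2 that counting error leaves anywhere from 12.96 to 403.5. Row 27782822 had 0 control reads and 58 after BS008. This is 20.0-fold higher against an assumed floor of 3 counts in the control library, while the exact 95% interval of the fold starts lower, at 15.8. Of the 46 rows past the count minimum, 9 were above 10-fold, this value included. The overlapping rows 26199013 and 26199087 both count among them. Rows 26199787 and 27782822 do as well, though they met the minimum only through BS008. The share of all rows above 10-fold was not computed. Rows 26199787 and 27782822 were picked out after their values had been seen. Of 524 rows of the files with 0 control reads and at least 10 after BS008, 5 were cluster rows.

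The 2 rows with the most control reads had folds near the middle of the range. This did not hold for row 26104176, which had 219 control reads and did not rise. The median fold of the 32 rows with at least 10 control reads was 5.88. The highest row in both libraries was chr6:27114188-27114619 (minus strand), with 825 reads in control cells and 5057 after BS008, 6.35-fold (5.90 to 6.84). The row chr6:27106073-27106460 (minus strand) was the second in both, with 658 and 3681 reads, 5.79-fold (5.33 to 6.30). Their levels were 34.4 and 30.6 RPKM in control cells, where the counting intervals of these neighbours in the order overlapped, and 219 and 177 RPKM after BS008, where they did not. The 2 rows with the most reads held 51.0% of the cluster's reads in control cells and 39.5% after BS008. The row chr6:26055969-26056699 (minus strand) had 231 and 1614 reads, 7.24-fold (6.30 to 8.34), and went from 5.70 to 41.2 RPKM.

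Further named rows had folds from 3.55 to 9.30. Row 26138282 on the plus strand, 1030 bp long, went from 128 to 1150 reads (9.30-fold). The plus-strand rows 26124373 and 26158349 went from 85 to 617 and from 73 to 544 reads, at 7.52-fold and 7.72-fold with intervals that overlapped. Row 26171203 went from 33 to 192 reads (6.02-fold). The plus-strand row 26251879 went from 63 to 216 reads, 3.55-fold (2.67 to 4.78), the smallest rise among the named rows.

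One well-covered row did not rise. The row chr6:26104176-26104564 (plus strand, 389 bp) went from 219 reads (191 to 250) to 183 (157 to 212). Its fold of 0.865 has an interval from 0.707 to 1.06, which includes no change. At 10.2 RPKM it was the third in control cells, and at 8.78 RPKM it was 15th of the 59 rows after BS008. The 4 other rows with a lower CPM after BS008 had at most 5 reads in either library, so no difference was detectable at this depth.

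Some rows changed place in the order of levels by many ranks. Besides row 27777842, row 26216428 went from the 27th to the sixth place and row 26199787 from the 46th to the 19th. Over the 59 rows, the rank correlation (Spearman) of RPKM between the libraries was 0.842, given as a description, since the rows share libraries, copies of sequence and many low counts. Most neighbours in the order could not be separated by counting error. Of 48 neighbouring pairs among the rows detected in control cells, 3 had counting intervals that did not overlap, which lie below the second, the third and the fourth row. After BS008, 7 of 53 pairs had such intervals, one of them the overlapping rows 26199087 and 26199013, whose RPKM differ through their lengths and hardly through their reads.

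The rise was seen in each of the 4 windows. Summed reads went from 277 to 1824 over the 9 rows of the first window (6.82-fold, 6.01 to 7.76), from 860 to 6943 over the 29 rows of the second (8.36-fold, 7.79 to 8.98) and from 1522 to 9356 over the 5 rows of the third (6.37-fold, 6.03 to 6.72). In the fourth window, 16 rows went from 247 to 4007 reads, 16.8-fold (14.8 to 19.2), but row 27777842 alone held 3168 of the latter. The other 15 rows of this window went from 215 to 839 reads, 4.04-fold (3.47 to 4.72), so that without this row the fold of the fourth window turned from the highest to the lowest of the 4. No row was left out of the other windows, which single rows also carry. After BS008, row 26055969 held 1614 of the 1824 reads of the first, and row 27114188 held 5057 of the 9356 of the third. Over all rows but 27777842 the summed fold was 6.83 (6.57 to 7.11). Of the rows with at least 10 control reads, 3 of 3 were called higher in the first window, 13 of 17 in the second, 4 of 4 in the third and 6 of 8 in the fourth, against 3.44% of all such rows. In the first window, 6 of the 9 rows had at most 4 reads in either library. By strand, the summed fold was 9.83 for the plus-strand rows and 7.04 (6.72 to 7.38) for the minus-strand rows, but the order turned without row 27777842, with 6.34 (5.89 to 6.82) for the other plus-strand rows. No row was left out of the minus-strand rows, of whose 13767 reads after BS008 row 27114188 held 5057. By length, it was 4.93 over the 15 shortest rows (353 to 393 bp), 10.1 over 34 rows of 424 to 565 bp (7.95 without row 27777842) and 7.65 over the 10 longest (605 to 1460 bp). Whether strand or length played a part in the differences was not tested.

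Histone genes are often arranged as divergent pairs, above all H2A with H2B. Among the 59 rows, 9 pairs had a minus-strand row followed within 1 kb by a plus-strand row, with gaps from 205 to 773 bp. Both rows were higher after BS008 in 8 pairs, without a count minimum, and both were called at 2-fold or more in 5. In these 5 pairs, rows 26199787, 27782080 and 27782822 met the count minimum only through BS008, with 2, 8 and 0 control reads. They therefore had to be higher. Taken singly, 49.4% of all rows with a read were higher, and 3.73% of those past the minimum were called higher. Other close pairs were not counted. Partners did not rise alike in every pair. In the pair of rows 27100096 and 27100817, reads went from 19 to 511 on the minus-strand row (log2 ratio 3.58) and from 18 to 93 on the plus-strand row (1.44), so that the plus-to-minus ratio of RPKM changed from 0.915 to 0.176. In the pair of rows 26123696 and 26124373 it was the plus-strand row that moved further, with log2 ratios of 0.59 and 2.56 and a ratio that went from 4.61 to 13.8. In the pair of rows 27106073 and 27107088 nearly all reads were on the row listed on the minus strand in both libraries, 658 against 2 in control cells and 3681 against 14 after BS008. A row is 1 listed exon and none was tied to a gene, so a pair of rows need not be a divergent pair of genes. The remaining pair, 26271147 and 26272386, had 5 and 10 reads on the minus-strand row and none on the plus-strand row.

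**Figure D4:**
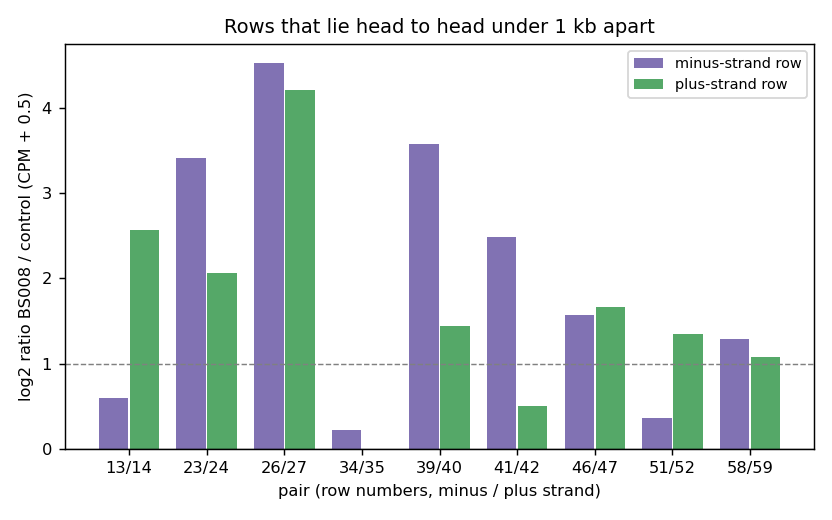
Log2 ratio of BS008 to control on CPM + 0.5 for both rows of the 9 head-to-head pairs, minus-strand rows in purple and plus-strand rows in green, labelled by their place along the chromosome, with a dashed line at 2-fold. In 5 pairs both bars reach the line, and in the pair 34/35 the plus-strand row had no reads in either library.

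Rows near the cluster moved in the same direction by less. Between 517 kb before the first window and 638 kb after the last, 331 rows lie outside the windows. Of the 177 past the count minimum, 14.1% (25 rows) were called higher and 0 lower, with a median log2 ratio of 0.41. Their summed reads went from 11586 to 22093, 1.97-fold (1.93 to 2.02), compared with 7.88-fold for the cluster rows. No gene of these rows is named in the files, so further histone genes could be among them. The cluster rows are long, and 30 of the 59 stand alone, with no other row within 1000 bp on either strand. Rows of their length range that stand alone in the same way were also taken from the rest of the files. Of 6688 such rows with at least 10 control reads, 412 were called higher, and the summed fold of all 13521 such rows was 1.035. The 30 cluster rows that stood alone in the same way had 12 of 17 with at least 10 control reads called higher and a summed fold of 8.31 (7.78 to 8.88).

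Measures of the libraries moved as well. Mitochondrial rows held 11.8% of the counts in control cells and 13.1% after BS008, and a single mitochondrial row, from 1707 to 3106, went from 870874 to 2395413 reads (log2 ratio 1.51). Among rows past the count minimum with under 100 control reads, 4.56% were called higher, against 3.73% of all rows past it. This group was picked for low control counts and holds rows that passed only through BS008, which favours higher calls. Of its 61630 rows with at least 10 control reads, 2500 were called higher. The part of the mitochondrial shift, of low counts and of the poly(A) selection of each library in the rise of the histone rows was not tested. Since control and BS008 are 1 library each, treatment and culture cannot be told apart.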

How the data were processed

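RNA of Huh-7 cells was harvested with Trizol, and 1 ug of total RNA was used for each library with an Illumina mRNA-seq kit. The authors deposited, for each library, raw counts of reads on every listed exon row and the same values as RPKM, scaled to row length and summed row counts. Recomputing RPKM from the counts gave the deposited values to within 4.7e-06. The submitters' notes name hg19. The aligner, the counting tool and the annotation are not given in the sources used here. The protocol text of both samples names BS008, while their treatment characteristics give DMSO for one and BS008 for the other. Groups follow these characteristics, with 1 library for each (55476654 and 53578432 counts).

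Rows were selected by coordinates as the files give them. Only GRCh38 references were at hand (RefSeq GRCh38.p14 and GENCODE 29), so coordinates were not converted, no row was assigned to a gene, and the lists of S phase, histone processing and cell type marker genes were not used. The members, lists and settings were chosen with earlier results of these data known. The rows named are the 15 with the highest mean RPKM and the 8 with the largest log2 ratio in each direction among rows that reached 100 counts in a library. Only 1 such row was lower, and other rows named were picked after their values were seen.

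Log2 ratios used CPM plus 0.5, and the count minimum was 10 in the higher of the libraries. Intervals are exact at the 95% level (Poisson for counts, conditional binomial for folds), and the fold limit was 2. A floor of 3 counts stood for 0 in control. A single library for each condition leaves no spread to test against, so no test was run. The calculation was tested on simulated data. Alternatives were other pseudocounts, count minimums, limits, library sizes, row lengths and overlaps. Python 3.11.15 was used with pandas 2.3.3, scipy 1.17.1, numpy 2.4.6 and matplotlib 3.10.9. TMM factors came from edgeR 4.0.16 in R 4.3.3, and size factors followed the DESeq2 method.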

Additional observations from a re-analysis of the deposited data

Results flagged for a closer look

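The windows also hold 6 rows under 300 bp, which the comparisons left out. Of these, 4 reached 10 reads, all of them only through the BS008 library, so they had to be higher there. In each of these 4 the exact interval of the fold was above 1, as it was in 24.8% of all rows with at least 10 counts in either library. Row 26127926 (64 bp) went from 9 to 69 reads, a log2 ratio of 1.43 and a fold of 7.94 (exact 95% interval 3.95 to 18.1). Row 27793690 (74 bp) had 2 and 60 reads, with a log2 ratio of 1.60, and row 27809342 (98 bp) had 3 and 31, with a log2 ratio of 0.96. Row 26224427 (107 bp) had 3 and 16 reads, with a log2 ratio of 0.53. Over the 6 short rows, reads went from 18 to 179, which is 10.3-fold (6.33 to 17.8). Such rows may belong to other genes than the histone genes, and the files do not name them.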

How the results depend on the processing

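No paired analysis was possible because each condition has 1 library, and for the same reason no replicate could be left out. The number of rows called higher (31) was 19 with at least 100 counts in either library, which leaves fewer rows, and from 25 to 40 under all other settings, where 0 rows were called lower as well. The median log2 ratio (1.44) was 2.18 with a pseudocount of 0.1, 1.05 with a pseudocount of 1, 1.10 with at least 1 count, 2.56 with at least 100 counts and 1.01 without a minimum. The log2 ratio of the summed counts (2.97) was 3.07 without the row with the most counts and 2.87 without the 5 rows with the most, the latter chosen after seeing the data, as were the values without a minimum and with 10 control reads. Leaving out the row of the largest change, also added after seeing the data, moved the summed folds of the fourth window, the plus strand, the middle lengths and all rows as given beside them. The log2 ratio of the summed counts stayed within counting error under the other settings. It was 3.02 with TMM library sizes and 2.92 without the rows that overlap another row. Rows detected in control cells numbered 32 at 10 counts or more instead of 49. Without mitochondrial rows in the total, the summed CPM was 59.4 in control cells and 475.2 after BS008, and without the row with the most counts 37.5 and 318.7. All 90 log2 ratios of the 15 named rows under 6 alternatives kept their sign, and 7 moved by more than counting error, all with another pseudocount. Depth limits the rows with few control reads most, and the spread between cultures was not measured at any depth.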
